A study of Mus musculus with 56 samples.

Results

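The matrix metalloproteinases and their tissue inhibitors were followed through 7 ways of preparing the same comparison, OV cells against 3T3 cells. OV is a line of mouse ovarian surface epithelium, and 3T3 is one of mouse fibroblasts. The members were taken by gene symbol: the metalloproteinase genes Mmp2, Mmp3, Mmp9, Mmp10, Mmp13 and Mmp14 and the inhibitor genes Timp1, Timp2 and Timp3, which are 9 of 15063 genes named on the array. Each had 1 probe, so no member averages over several probes.

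Matrix metalloproteinases are secreted or membrane-bound zinc enzymes that cut collagens, gelatins and other proteins of the extracellular matrix. Most are made as inactive proenzymes and are switched on by removal of a propeptide, by plasmin or by another metalloproteinase. The tissue inhibitors of metalloproteinases, the Timps, bind the active site of the enzymes and block it. Fibroblasts are a classical source of these enzymes, and at the ovarian surface they are known for matrix breakdown at ovulation.

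Every array held 2 targets, labelled with Cy5 and with Cy3, and each value was a log2 ratio, turned here to OV over 3T3, so that a positive value means more signal from OV. The deposited ratios were read as Cy5 over Cy3, which is likely but not settled, since the study's text gives both directions. On that reading Wt1, a mesothelial transcription factor, averaged 3.65 ± 0.50 and Krt8, an epithelial keratin, 3.44 ± 0.48 in unamplified cDNA (SD, n = 4 arrays). The targets were IVTIII, cRNA from 3 rounds of transcription by the T7 polymerase; GA, cDNA tailed with poly(A) and amplified by PCR; SMART, PCR-amplified cDNA made with a template-switching primer; SM37, a variant of SMART with another primer, all from 10 ng of total RNA; GA and SMART from 10 pg; and unamplified cDNA from 100 μg. Each target had 4 arrays of OV against 3T3, with the dyes swapped between odd and even arrays. By the methods, the 4 arrays of a target came from the same RNA and held 2 independent preparations of each line, so that the tests see how far preparations and hybridizations scatter and do not see how far cultures differ. A ratio of bulk RNA cannot tell more expressing cells from more RNA per cell. OV was also hybridized against OV on 21 arrays of replicas and 3 arrays of a target against itself. On 4 arrays, separate amplifications of RNA from the same pool of neural stem cells were compared.

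Spot intensities were not used here, so signal over background is unknown. In place of a depth, 2303 to 19243 probes had a value on the 28 arrays of OV against 3T3. The GA arrays from 10 pg stood apart from the others. Across genes, their correlation with the mean unamplified ratio was 0.0018, 0.0049, -0.1308 and -0.1481 (Pearson r), against 0.3784 to 0.6883 for the arrays of the other amplified targets and 0.8789 to 0.9499 for unamplified arrays against the mean of the other 3. Among themselves, the SMART arrays from 10 ng correlated at -0.0687 (arrays 1 and 4) to 0.7135 (arrays 2 and 3), and the GA arrays from 10 pg at 0.4622 to 0.8559. Of 73 genes called different between the lines both there and in unamplified cDNA, 40 had opposite signs (54.8%), against 17 of 293 for IVTIII (5.80%), and the members' values from these arrays are therefore also given on their own. Whether their values and labels belong together could not be checked, so OV and 3T3 there are only as the labels give them.

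**Figure D1:**
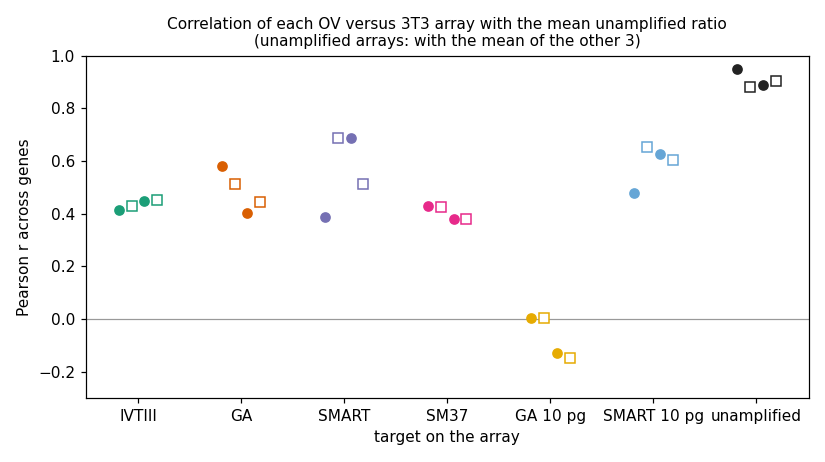
Pearson r across genes between each array of OV against 3T3 and the mean ratio of unamplified cDNA (of the other 3 arrays, for unamplified arrays). Each point is 1 array, filled with OV in Cy5 and open with OV in Cy3; the GA arrays from 10 pg lie between -0.1481 and 0.0049, and the arrays of the other amplified targets between 0.3784 and 0.6883.

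The markers fitted the labelled lines in part. In unamplified cDNA, 8 of 11 measured epithelial and mesothelial markers were called, against 16.1% of all genes tested. Of these, 7 were higher in OV, among them Upk1b at 4.26 and Gata6 at 3.29. The keratin Krt18 was lower in OV at -0.75, and the epithelial cadherin Cdh1 was not called at 0.14. Of 9 fibroblast markers 4 were lower in OV, among them the transcription factor Prrx1 at -3.33, but the collagen genes Col1a1 (1.47) and Col3a1 (2.15) were higher. No marker was called among 5 of immune cells (0 at an unadjusted p under 0.05, 0 at an adjusted p under 0.05) or 5 of endothelium (1 and 1).

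A gene was called where limma's LOD, the log odds that it differs between the lines, was above 0, among genes that all 4 arrays of a target measured. The 4 arrays were treated as independent, without dye-swap pairs as a block. The correlation within assumed pairs was positive in IVTIII (0.08), SM37 (0.17), GA (0.33) and GA from 10 pg (0.45). There the p-values may be too small and the calls too many. In IVTIII, 4 of 6 measured members were called (Mmp13, Mmp10, Mmp3 and Mmp2), all higher in OV, against 22.0% of all genes tested. GA called 2 of 5, Mmp13 and Timp2, both higher in OV, against 8.23% of genes, and SMART 3 of 7, Mmp13, Timp2 and Timp3, all higher, against 3.54%. SM37 called 2 of 5, Mmp13 and Timp1, both higher, against 13.0%.

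From 10 pg, GA called 1 of 7 members, Mmp13, lower in OV, against 5.45% of genes, and SMART 1 of 2, Timp3, higher, against 8.97%. In unamplified cDNA 5 of 7 members were called, against 16.1% of genes: Mmp13, Timp1, Timp2 and Timp3 were higher in OV and Mmp2 lower, while Mmp3 and Mmp14 were not called. The median log2 ratio of the measured members, beside that of all genes, was 0.87 and 0.01 in IVTIII, 0.16 and -0.02 in GA, 0.49 and 0.01 in SMART, 0.36 and -0.03 in SM37, 0.52 and -0.10 in GA from 10 pg, 0.65 and 0.02 in SMART from 10 pg, and 0.80 and -0.00 in unamplified cDNA. Members that had a value differed from target to target, so these medians do not cover the same genes.

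Timp1 had a value on all 28 arrays, Mmp13 on 27, Mmp14 on 26, Timp2 and Timp3 on 23, Mmp2 and Mmp3 on 22, Mmp10 on 16 and Mmp9 on 11. Timp2 and Timp3 had none on the 4 IVTIII arrays, Mmp10 and Mmp9 none on the SM37 arrays, and Mmp9 none on the SMART arrays from 10 pg. The reason for the missing values is not stated in the sources used here.

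**Figure D2:**
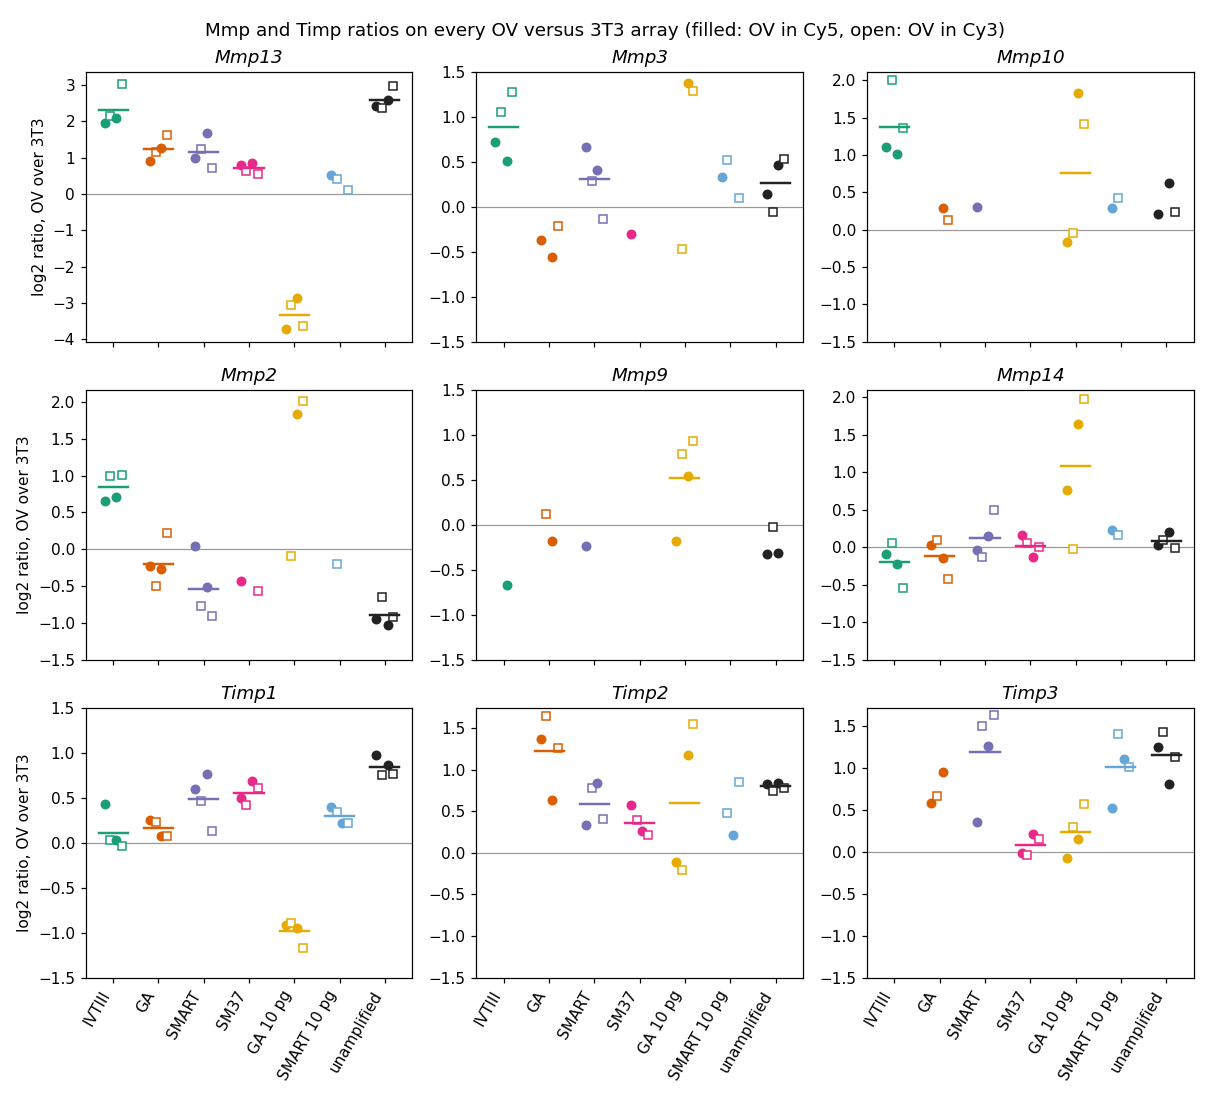
Log2 ratio of OV over 3T3 (vertical axis, scales differ between genes) for each member on every array, with amplified targets to the left and unamplified cDNA at the right. Points are arrays, filled with OV in Cy5 and open with OV in Cy3, and bars are means where all 4 arrays had a value; Mmp13 lies above 0 on every array but those of GA from 10 pg, and Mmp2 lies above 0 in IVTIII and below 0 in unamplified cDNA.

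Mmp13 encodes collagenase 3, which cuts fibrillar collagens and in rodents serves as a main interstitial collagenase. It had the largest ratio of the members in unamplified cDNA, and it was the member called in the most targets. Its log2 ratios were 1.94, 2.15, 2.09 and 3.02 on the IVTIII arrays, 0.90, 1.16, 1.26 and 1.62 on those of GA, 0.99, 1.23, 1.66 and 0.71 on those of SMART and 0.80, 0.64, 0.84 and 0.54 on those of SM37. They were 2.43, 2.37, 2.58 and 2.98 on the unamplified arrays. All of these values were positive, the IVTIII arrays overlapped the unamplified ones, and every GA, SMART and SM37 array lay below every unamplified array.

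As fold changes, Mmp13 was 4.92-fold higher in OV in IVTIII (adjusted p = 6.88e-05), 2.35-fold in GA (0.00244), 2.22-fold in SMART (0.00480), 1.63-fold in SM37 (0.00120) and 6.01-fold in unamplified cDNA (7.39e-05; limma with Benjamini-Hochberg adjustment over all genes tested). By the size of its mean ratio it ranked 30 of 3972 genes in IVTIII, 126 of 5458 in GA, 29 of 7405 in SMART, 601 of 5779 in SM37 and 42 of 10185 in unamplified cDNA. The SMART arrays from 10 pg gave 0.52, 0.41 and 0.11, with no value on array 3, a lower range than that of any other target with positive Mmp13 values, though it was not tested with the main filter. With genes measured on 3 of 4 arrays admitted, its mean of 0.35 had an adjusted p of 0.0472 and an LOD below 0.

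Mmp13, Mmp3 and Mmp10 lie on chromosome 9 in 1 cluster. RefSeq (GRCm38.p6) places 6 protein-coding genes in the stretch that they span, in the order Mmp13, Mmp12, Mmp1b, Mmp3, Mmp1a and Mmp10, all of them metalloproteinases. The promoters of such genes are known for AP-1 sites, which bind dimers of Fos and Jun proteins, and for PEA3 sites, which bind ETS factors. The letters TGAGTCA or TGACTCA (AP-1, each the reverse complement of the other) were searched on both strands from 250 bases before to 50 after each start. The RefSeq table held this window for 7 of the 9 members, Mmp2 and Mmp9 not among them, and the word stood in 3, Mmp13, Mmp3 and Mmp10, against 5.2% of all 32851 promoters (1709).

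These 3 promoters are shown because they are the members that hold the word, all from the same cluster. In unamplified cDNA the mean log2 ratios were 2.59 for Mmp13, 0.27 for Mmp3 and, over 3 arrays, 0.36 for Mmp10. Differences between these genes were not tested. The 120 bases before each start follow, 5′ to 3′, with the AP-1 word in capitals.
Mmp13, chr9:7272394-7272513, plus strand: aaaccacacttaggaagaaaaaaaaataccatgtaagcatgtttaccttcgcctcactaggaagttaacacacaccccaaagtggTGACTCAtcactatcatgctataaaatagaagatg
Mmp3, chr9:7445702-7445821, plus strand: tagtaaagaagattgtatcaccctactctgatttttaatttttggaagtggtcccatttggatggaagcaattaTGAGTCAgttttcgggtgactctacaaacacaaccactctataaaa
Mmp10, chr9:7502222-7502341, plus strand: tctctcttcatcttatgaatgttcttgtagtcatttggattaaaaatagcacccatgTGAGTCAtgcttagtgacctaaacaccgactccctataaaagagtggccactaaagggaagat
The word began 35 bases before the start of Mmp13, 46 before that of Mmp3 and 63 before that of Mmp10. The letters AGGAAG or CTTCCT (PEA3) stood in the windows of Mmp13, Mmp3, Mmp14, Timp1 and Timp3, against 35.4% of all promoters. Neither match is a measurement of binding.

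Mmp3 and Mmp10 encode stromelysins 1 and 2, which cut a broad set of matrix proteins and activate other proenzymes. Their ratios in unamplified cDNA were small beside that of Mmp13. Mmp3 had log2 ratios of 0.72, 1.05, 0.51 and 1.28 on the IVTIII arrays, 0.66, 0.29, 0.41 and -0.14 on the SMART arrays, and 0.14, -0.06, 0.46 and 0.53 on the unamplified arrays. Only the lowest IVTIII value fell within the unamplified range, whereas the SMART values spread over all of it. Mmp3 was called in IVTIII alone of the 3 targets that measured it on 4 arrays, at 0.89 ± 0.34, a 1.85-fold higher level in OV (SD, n = 4, adjusted p = 0.00120), against 0.31 ± 0.34 in SMART (0.199) and 0.27 ± 0.28 in unamplified cDNA (0.0879). The IVTIII call was lost when array 1, 2 or 4 was left out, with means of 0.95, 0.84 and 0.76.

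On the other targets Mmp3 had values of -0.37, -0.56 and -0.21 on 3 GA arrays, -0.30 on 1 SM37 array and 0.33, 0.52 and 0.09 on 3 SMART arrays from 10 pg. The GA and SM37 values were all negative and lay below the unamplified range. With 3 arrays admitted, the GA mean was -0.38 (adjusted p = 0.0895) and was not called.

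Mmp10 had log2 ratios of 1.11, 2.00, 1.01 and 1.36 on the IVTIII arrays, 0.28 and 0.13 on 2 GA arrays, 0.30 on 1 SMART array, 0.29 and 0.43 on 2 SMART arrays from 10 pg and 0.21, 0.63 and 0.24 on 3 unamplified arrays. Every IVTIII value lay above every value of these other targets. In IVTIII Mmp10 was 2.58-fold higher in OV (1.37 ± 0.45, SD, n = 4, adjusted p = 0.000405). Its mean over the 3 unamplified arrays was 0.36 ± 0.23 (adjusted p = 0.0438 with 3 arrays admitted, LOD below 0, so not called).

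Mmp2 and Mmp9 encode the gelatinases A and B, which cut gelatin and the type IV collagen of basement membranes. Among the targets other than GA from 10 pg, Mmp2 was the member called in opposite directions. Its log2 ratios were 0.65, 0.99, 0.71 and 1.01 on the IVTIII arrays, -0.23, -0.50, -0.27 and 0.22 on those of GA, 0.05, -0.78, -0.51 and -0.91 on those of SMART, and -0.95, -0.65, -1.03 and -0.92 on the unamplified arrays. All 4 IVTIII values were positive and all 4 unamplified values negative, and the GA values lay between both sets without overlap.

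Mmp2 was 1.79-fold higher in OV in IVTIII (0.84 ± 0.19, adjusted p = 0.000373) and 1.85-fold lower in OV in unamplified cDNA (-0.89 ± 0.17, adjusted p = 0.000533; SD, n = 4 each). It was among the 17 genes called with opposite signs in IVTIII and unamplified cDNA. In GA it averaged -0.20 ± 0.30 (adjusted p = 0.321) and in SMART -0.54 ± 0.42 (0.0664), neither of them called. SMART array 1 alone was positive, and without it the mean was -0.73 and was called. The 2 SM37 arrays with a value gave -0.43 and -0.57, and the 1 SMART array from 10 pg gave -0.20.

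Mmp9 was the least often measured. It had a value of -0.67 on IVTIII array 3, 0.12 and -0.18 on GA arrays 2 and 3, -0.24 on SMART array 1 and -0.33, -0.02 and -0.32 on unamplified arrays 1 to 3. The unamplified mean was -0.22 ± 0.17 (SD, n = 3; adjusted p = 0.106 with 3 arrays admitted), and Mmp9 was called in no target.

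Mmp14 encodes a membrane-anchored metalloproteinase that activates the Mmp2 proenzyme at the cell surface. Its ratios stayed near 0 outside GA from 10 pg. They were -0.10, 0.05, -0.22 and -0.55 on the IVTIII arrays, 0.03, 0.10, -0.15 and -0.43 on the GA arrays, -0.04, -0.13, 0.15 and 0.49 on the SMART arrays, 0.16, 0.05, -0.13 and -0.00 on the SM37 arrays and 0.03, 0.10, 0.19 and -0.01 on the unamplified arrays. Each of these sets held values on both sides of 0. The means of these sets of 4 ran from -0.20 in IVTIII to 0.12 in SMART, with 0.08 ± 0.09 in unamplified cDNA (SD, n = 4, adjusted p = 0.343), and none was called. The 2 SMART arrays from 10 pg with a value gave 0.23 and 0.16, both positive and above those means.

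Timp1, Timp2 and Timp3 encode secreted inhibitors of metalloproteinases: Timp1 is known to bind the Mmp9 proenzyme, Timp2 the Mmp2 proenzyme, and Timp3 is held in the matrix and also blocks some ADAM proteases. All 3 were called higher in OV in unamplified cDNA. There Timp1 averaged 0.84 ± 0.10 (adjusted p = 0.000351), Timp2 0.80 ± 0.05 (0.000273) and Timp3 1.16 ± 0.26 (0.000566; SD, n = 4 each), which correspond to 1.79-fold, 1.74-fold and 2.23-fold. No amplified target had all 3 calls: Timp2 was called in GA, Timp2 and Timp3 in SMART, Timp1 in SM37 and Timp3 in SMART from 10 pg. Only SMART, SM37 and GA from 10 pg measured all 3 on 4 arrays. IVTIII had no Timp2 or Timp3 value, GA had Timp3 on 3 arrays, and SMART from 10 pg had Timp2 on 3. These last targets could not have called all 3.

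Timp1 had log2 ratios of 0.43, 0.03, 0.03 and -0.04 on the IVTIII arrays, 0.25, 0.23, 0.08 and 0.08 on those of GA, 0.60, 0.46, 0.77 and 0.13 on those of SMART, 0.49, 0.42, 0.69 and 0.61 on those of SM37, 0.39, 0.35, 0.22 and 0.22 on those of SMART from 10 pg, and 0.98, 0.75, 0.86 and 0.77 on the unamplified arrays. The values of every amplified target lay below the unamplified range, except for SMART array 3 at 0.77. SM37 was the amplified target in which Timp1 was called (0.55 ± 0.12, SD, n = 4, adjusted p = 0.00257). That call was lost with any 1 of the 4 arrays left out, at means of 0.51 to 0.60, and with a dye term. In SMART the mean of 0.49 had an adjusted p of 0.0367 and in SMART from 10 pg the mean of 0.30 one of 0.00902, both with an LOD below 0.

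Timp2 had log2 ratios of 1.36, 1.65, 0.64 and 1.26 on the GA arrays, 0.34, 0.77, 0.84 and 0.41 on those of SMART, 0.57, 0.39, 0.26 and 0.22 on those of SM37, 0.48, 0.22 and 0.86 on 3 SMART arrays from 10 pg, and 0.83, 0.74, 0.84 and 0.78 on the unamplified arrays. All of these values were positive, 3 of the 4 GA values lay above the unamplified range and all 4 SM37 values below it. It was 2.34-fold higher in OV in GA (adjusted p = 0.00395), 1.51-fold in SMART (0.0156) and 1.28-fold in SM37 (0.0180, LOD below 0). The GA call was lost without array 1 or 2 (means 1.18 and 1.09; the description of array 2 speaks of replicas, while its title and channels give OV and 3T3), and the SMART call without array 2 or 3 (0.53 and 0.51).

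Timp3 had log2 ratios of 0.58, 0.67 and 0.95 on 3 GA arrays, 0.36, 1.50, 1.26 and 1.63 on the SMART arrays, -0.01, -0.04, 0.22 and 0.15 on the SM37 arrays, 0.52, 1.40, 1.10 and 1.01 on the SMART arrays from 10 pg, and 1.26, 1.43, 0.81 and 1.13 on the unamplified arrays. Both SMART sets overlapped the unamplified range and held 1 low array each, array 1, while the SM37 values lay around 0. Timp3 was 2.28-fold higher in OV in SMART (1.19 ± 0.57, adjusted p = 0.00950) and 2.01-fold in SMART from 10 pg (1.01 ± 0.36, adjusted p = 0.000679; SD, n = 4 each). The SMART call was lost without array 2 or 3, at means of 1.08 and 1.17, and the call from 10 pg was kept without any 1 array. In SM37 the mean was 0.08 ± 0.13 and was not called.

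The difference between each amplified target and unamplified cDNA was then tested for all genes with a value on all 8 arrays (limma, adjusted p under 0.05). The 4 arrays a side were treated as independent, though they held 2 preparations of each line, and dye-swap pairs were not blocked in these tests. The correlation within assumed pairs ran from -0.27 in SMART from 10 pg to 0.45 in GA from 10 pg. Where it was positive, the p-values may be too small. The 6 comparisons share the 4 unamplified arrays and are not independent of each other. In IVTIII 3 of 5 members differed, against 48.1% of genes, in GA 3 of 5 against 21.4%, and in SMART 1 of 7 against 18.0%. In SM37 3 of 5 differed against 37.9%, in GA from 10 pg 3 of 5 against 35.9%, and in SMART from 10 pg 1 of 2 against 34.8%. Mmp9 and Mmp10 were not on all unamplified arrays and entered none of these tests.

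Mmp13 was lower than in unamplified cDNA in 4 of the 5 targets that could be tested. The difference in log2 ratio was -1.36 ± 0.19 in GA (SE, adjusted p = 0.00154), -1.44 ± 0.20 in SMART (0.000746) and -1.88 ± 0.15 in SM37 (1.41e-05), each with 4 arrays a side. In IVTIII it was -0.29 ± 0.23 (SE, adjusted p = 0.318), which does not show that both ratios were equal. With arrays centred and scaled to the same spread, the IVTIII difference became -1.12 (adjusted p = 0.000652) and the SMART difference -0.85 (0.0669), so that both calls turned on the scaling. Without IVTIII array 4, the highest for Mmp13, the unscaled difference was -0.53 (adjusted p = 0.0201).

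Mmp2 differed most in IVTIII, by 1.73 ± 0.13 (SE, adjusted p = 7.60e-06), and by 0.69 ± 0.17 in GA (0.0165), while its difference of 0.35 ± 0.19 in SMART did not pass (0.231). The GA difference was lost without unamplified array 1 or 3 (0.67 and 0.65, adjusted p = 0.0568 and 0.0503). Mmp3 differed in IVTIII by 0.62 ± 0.19 (0.0188), lost without IVTIII array 2 or without unamplified array 1 or 2 (0.57, 0.58 and 0.51). In SMART Mmp3 differed by 0.04 ± 0.18. Mmp14 passed in no target, with differences from -0.28 in IVTIII to 0.04 in SMART outside GA from 10 pg; without IVTIII array 2 the IVTIII difference was -0.37 (adjusted p = 0.0493).

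Among the inhibitors, Timp1 was lower than in unamplified cDNA, with differences of -0.73 ± 0.13 in IVTIII (SE, adjusted p = 0.000915), -0.68 ± 0.11 in GA (0.00332) and -0.54 ± 0.09 in SMART from 10 pg (0.00114). Its differences of -0.35 ± 0.14 in SMART (0.106) and -0.29 ± 0.11 in SM37 (0.0574) did not pass, but the SM37 one did with scaled arrays (-0.41, adjusted p = 0.00840) and without SM37 array 3 (-0.33, 0.0424). Timp2 was lower in SM37, with a difference of -0.44 ± 0.11 (0.00996), and its differences of 0.43 ± 0.19 in GA (0.135) and -0.21 ± 0.13 in SMART (0.319) did not pass. The GA one passed without GA array 3 (0.63, adjusted p = 0.0168). Timp3 was lower in SM37, with a difference of -1.08 ± 0.14 (0.000299), and it differed by 0.03 ± 0.25 in SMART (0.954) and -0.15 ± 0.18 in SMART from 10 pg (0.544).

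**Figure D3:**
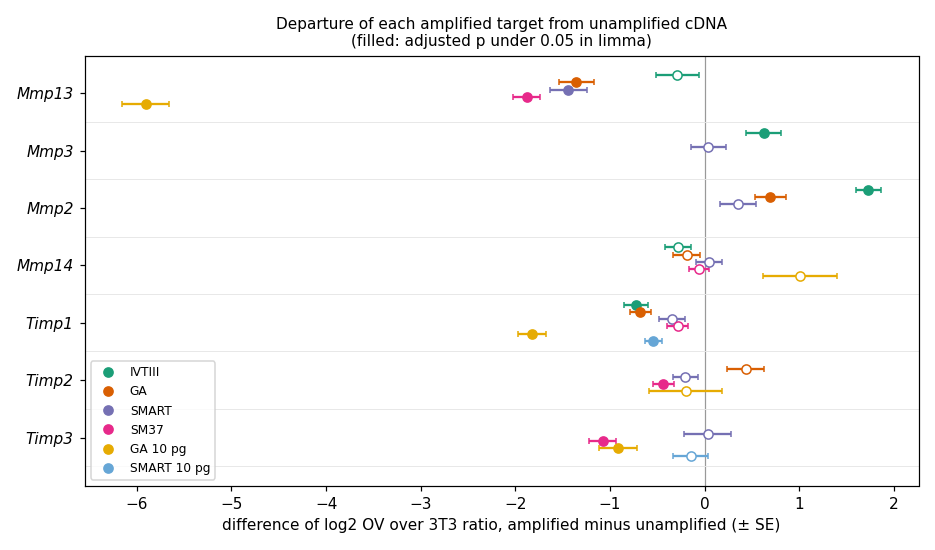
Difference in the log2 ratio of OV over 3T3 between each amplified target and unamplified cDNA (horizontal axis, amplified minus unamplified, bars ± SE, 4 arrays a side) for the 7 members measured on all unamplified arrays. Filled points passed an adjusted p of 0.05 in limma; Mmp13 lies to the left in GA, SMART, SM37 and, at -5.91, GA from 10 pg, and Mmp2 in IVTIII lies to the right at 1.73.

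The share of the unamplified log2 ratio that a target kept differed from member to member. For genes called in unamplified cDNA the median share was 0.49 in IVTIII (781 genes), 0.50 in GA (1014), 0.34 in SMART (1213), 0.34 in SM37 (955) and 0.35 in SMART from 10 pg (296); these genes were chosen on the unamplified arrays themselves. Mmp13 kept 0.89 in IVTIII, 0.48 in GA, 0.44 in SMART and 0.27 in SM37. Timp1 kept 0.13, 0.19, 0.58 and 0.66 in the same order. The array values overlapped between GA and SMART for Mmp13. For Timp1 they overlapped between IVTIII and GA and between SMART and SM37. The order of these shares was not tested. Timp2 kept 1.54 in GA, 0.74 in SMART and 0.45 in SM37, and Timp3 1.03 in SMART, 0.07 in SM37 and 0.87 in SMART from 10 pg. Mmp2 kept 0.22 in GA and 0.60 in SMART, and -0.95 in IVTIII, that is almost its full size with the opposite sign.

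In GA from 10 pg, the arrays that stood apart, Mmp13 had log2 ratios of -3.73, -3.05, -2.86 and -3.64, against 0.90 to 1.62 in GA from 10 ng and 2.37 to 2.98 in unamplified cDNA. All 4 values were far below every other Mmp13 value. By the labels of these arrays it was 9.98-fold lower in OV (-3.32 ± 0.43, SD, n = 4, adjusted p = 0.00341), ranked 10 of 4426 genes by size and differed from unamplified cDNA by -5.91 ± 0.25 (SE, adjusted p = 4.00e-06). Timp1, at -0.92, -0.89, -0.95 and -1.17, was the other member with 1 sign on all 4 arrays opposite to unamplified cDNA. Its mean of -0.98 ± 0.13 had an adjusted p of 0.0139 with an LOD below 0, and an adjusted p of 0.0547 with assumed dye-swap pairs as a block. The adjusted p was also above 0.05 without array 1, 3 or 4. Its difference from unamplified cDNA was -1.82 ± 0.15 (SE, adjusted p = 7.01e-05).

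Other members split within these arrays, between arrays 1 and 2 on one side and arrays 3 and 4 on the other. The grouping was not particular to the members. Across all genes, arrays 1 and 2 correlated at 0.80 and arrays 3 and 4 at 0.86, against 0.46 to 0.58 between these pairs (Pearson r). Mmp14 had 0.75 and -0.02 on arrays 1 and 2 and 1.64 and 1.97 on arrays 3 and 4, and Timp2 -0.11 and -0.21 on the first pair and 1.17 and 1.54 on the second. Mmp10 had -0.17 and -0.05 on the first pair and 1.83 and 1.41 on the second, Mmp2 -0.09 on array 2 and 1.84 and 2.01 on the second pair, and Mmp3 -0.47 on array 2 and 1.38 and 1.29 on the second pair. For each of these 5 genes both values of the second pair exceeded those of the first. Mmp9 had -0.18, 0.78, 0.54 and 0.94 and Timp3 -0.07, 0.30, 0.15 and 0.57, which follow no such split. Of these 7, Mmp2 and Mmp3 lacked a value on array 1 and were not tested, and none of the other 5 was called. Timp3 differed from unamplified cDNA by -0.92 ± 0.20 (SE, adjusted p = 0.00788). On the same arrays the marker genes Wt1 and Krt8 had positive means, 0.82 ± 0.46 and 1.77 ± 1.01 (SD, n = 4), while Krt7 (-0.69), Msln (-0.53), Upk1b (-0.28) and Gata4 (-0.24) were negative and Epcam stood at 0.10. Of these 7 measured epithelial markers, with a median of -0.24, 0 were called (3 at an unadjusted p under 0.05, 1 at an adjusted p under 0.05), against 5.45% of all genes.

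Where OV RNA was compared with OV RNA, the members' ratios give the size of differences that carry no difference between lines. On the 3 arrays of a target against itself, none of 20 values exceeded 2-fold, and the largest was -0.61 for Mmp9 in IVTIII. On the 21 arrays of OV replicas, 6 of 141 values exceeded 2-fold. GA from 10 pg gave 3 of them, -2.85 for Mmp10, whose other array had -0.96, and 1.26 and 1.22 for Timp2. Mmp9 gave 1.16 in GA from 100 pg and 1.87 in GA from 1 ng, each on 1 array, and Mmp14 1.05 in SM37, whose other array had 0.22. So 5 of the 6 came from GA targets and 1 from SM37, where Mmp14 alone of the members had values. The targets held unequal numbers of member values, and the share beyond 2-fold was not computed for all genes. These counts therefore rank neither targets nor members.

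The ratios of Mmp13 between OV replicas ran from -0.56 to 0.68 over 15 values, with a median of -0.02. This range is pooled over targets, with its lowest value from GA from 10 pg and its highest from GA from 10 ng. It overlapped the Mmp13 ratios of OV over 3T3 in SM37 and SMART from 10 pg, and not those of the other targets. Mmp13 had no value on the replica arrays of SM37 or of SMART from 10 pg, so neither has a replica range of its own. Timp1 ran from -0.21 to 0.51 (19 values), Timp3 from -0.21 to 0.71 (16) and Mmp2 from -0.27 to 0.40 (15). Unamplified replicas, with 1 array, held all members between -0.15 and 0.06. On the arrays of neural stem cells, none of 26 member values exceeded 2-fold. By the methods, these arrays compared separate amplifications of RNA from the same pool of cells. Mmp13 had no value on these 4 arrays.

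**Figure D4:**
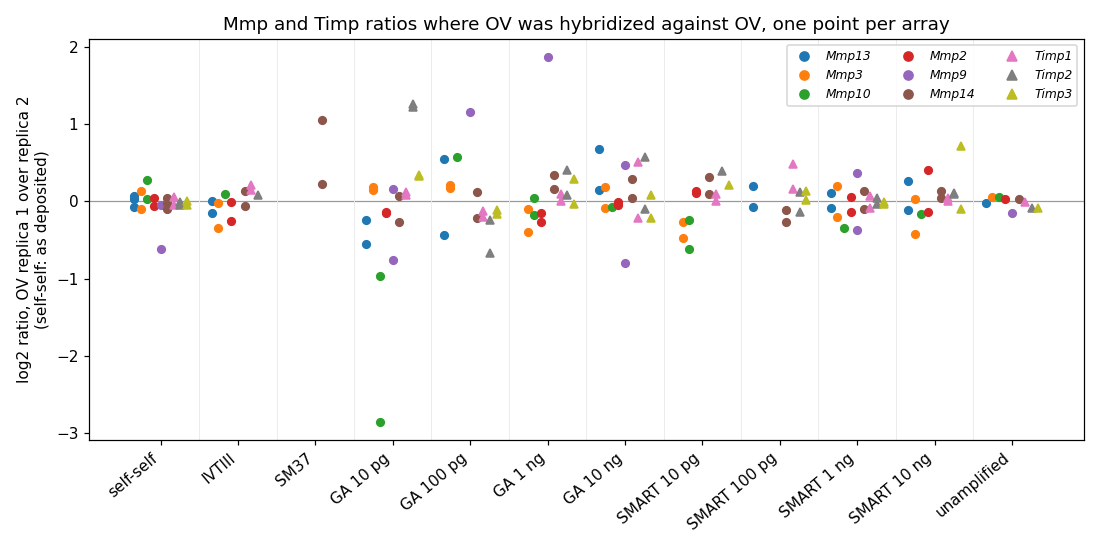
Log2 ratio of each member where OV was hybridized against OV (vertical axis, replica 1 over replica 2; for self-self arrays, as deposited), by target and amount of RNA, with amplified targets from low to high amount and unamplified cDNA at the right. Each point is 1 array, circles for metalloproteinases and triangles for inhibitors; the points beyond 1 are Timp2 in GA from 10 pg, Mmp9 in GA from 100 pg and 1 ng and Mmp14 in SM37, and Mmp10 in GA from 10 pg lies at -2.85.

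Genes around the pathway were read from lists in the same fits, with unamplified cDNA as the fullest. In it, 16.1% of all genes tested were called. Of 10 other metalloproteinases and Timp4 measured there, 0 were called by the LOD. An adjusted p under 0.05 in limma was reached by 7 of them, against 4973 of all 10185 genes, and an unadjusted p under 0.05 by 8. In IVTIII 1 of the 2 measured was called, Mmp19, lower in OV at -1.28, against 22.0% of all genes. Among ADAM and ADAMTS proteases, relatives that shed surface proteins or cut proteoglycans, 6 of 13 were called in unamplified cDNA, 4 higher in OV and 2 lower. The largest were Adam19 (-1.27 ± 0.15, SE), Adamts5 (-1.23 ± 0.09), Adam9 (0.93 ± 0.07) and Adam33 (0.88 ± 0.13). Adamts5, an aggrecan-cutting enzyme, was also called lower in OV in SMART (-0.55) and SM37 (-1.11), Adam19 lower in GA (-1.02), and Adam9 higher in OV in IVTIII (1.91).

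Of the plasminogen system, whose product plasmin activates several metalloproteinase proenzymes, 1 of 7 was called in unamplified cDNA, against 16.1% of all genes. This was S100a10, a plasminogen-binding partner of annexin A2, lower in OV at -1.40 ± 0.06 (SE). It was also called lower in GA (-1.52), SM37 (-0.94) and SMART from 10 pg (-0.55). Plau, the urokinase gene, was called in IVTIII, higher in OV at 1.10. Of 13 activators, inhibitors and inducers at the cell surface, 3 were called higher in OV and 2 lower, among them the caveolin gene Cav1 (-1.33 ± 0.06), the hyaluronan receptor Cd44 (-0.76 ± 0.09), the lysosomal cathepsin Ctsl (0.65 ± 0.08) and the procollagen-processing enhancer Pcolce (0.56 ± 0.06). Cav1 was also called lower in OV in SM37 (-0.92), and Ctsl higher in IVTIII (1.92). In the other targets Ctsl was not called. It was positive in GA (0.62), SMART (0.41) and SMART from 10 pg (0.34). It was negative in GA from 10 pg (-0.99) and SM37 (-0.83, adjusted p = 0.0107 in limma, LOD below 0).

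Of 11 AP-1 and ETS transcription factors, 3 were called higher in OV in unamplified cDNA and 4 lower, where 16.1% of all genes were called. Junb (1.59 ± 0.10, SE), Ets2 (1.20 ± 0.17) and Fos (0.90 ± 0.13) were higher, and Elk3 (-1.19 ± 0.11), Jun (-0.92 ± 0.07), Fosl1 (-0.81 ± 0.07) and Etv5 (-0.74 ± 0.08) lower, so that members of the Fos and of the Jun family each went both ways. Elk3 was also called lower in OV in IVTIII (-1.25) and SM37 (-0.77), Jun in SM37 (-0.80) and Fosl1 in IVTIII (-2.21).

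The genes whose ratios followed a member most closely were found by Pearson r over at least 20 shared arrays of OV against 3T3, across all targets. For Mmp13 they were Ubl3 (r = 0.96, 25 arrays), Taz (0.96, 20) and Tjp1 (0.96, 22), for Timp1 Map1lc3b (0.93), Grina (0.92) and H13 (0.90), and for Mmp2 Smc6 (0.96), Hspa4 (0.95) and Set (0.94), each over 22 arrays. Without the GA arrays from 10 pg the Mmp13 values became 0.75, 0.74 and 0.75 and those of Timp1 0.68, 0.83 and 0.69, while those of Mmp2 were 0.92, 0.93 and 0.93. For Mmp14 the closest were Tnxb, Zfp326 and Cxxc1 (0.95 each), which became 0.63, 0.50 and 0.57. The closest genes reached 0.94 for Mmp3 (Ghitm, 0.91 without those arrays, then Ppp2ca and Tomm5), 0.82 for Timp2 (Ankrd11, 0.78, then Fstl1 and Ciao2b) and 0.78 for Timp3 (Sdf2, 0.76, then Gtse1 and Hp1bp3). The arrays of 1 target share their RNA, so these correlations describe the ratios across targets more than across samples.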

How the data were processed

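Mouse oligonucleotide arrays were hybridized with pairs of targets, 56 arrays in all, of which 28 set OV against 3T3. The authors quantified spots with GenePix Pro, subtracted the background and applied print-tip lowess with limma, array by array. The deposited values are log2 ratios, taken here as likely Cy5 over Cy3 and used unchanged apart from sign. Groups, dyes and array numbers came from the labels. IVTIII array 1 of OV against 3T3 names 3T3 in the channel where its description puts OV, and the description was followed. On that reading its ratios correlated with those of arrays 2, 3 and 4 at 0.89, 0.82 and 0.80 (Pearson r across genes). For GA array 2, whose description speaks of replicas, the title and channels were followed. Amounts follow the methods where the labels give other units, and the SMART replicas titled 1 ng are described as 100 pg.

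Of 21997 probes, 231 controls were left out. Probes of 1 gene symbol (16632; 139 had several and 4995 none) were averaged to 15063 genes by the platform annotation. Ratios were tested with limma 3.58.1 in R 4.3.3 (lmFit and eBayes, prior proportion 0.01), called at an LOD above 0, and differences from unamplified cDNA at a Benjamini-Hochberg adjusted p under 0.05. Both tests were tested on simulated data, in which arrays were independent, so correlation within dye-swap pairs was not covered. Fold changes are 2 to the power of the mean log2 ratio. Promoters and gene order are from RefSeq (GRCm38.p6). Figures used matplotlib 3.10.9, and tables pandas 2.3.3 and numpy 2.4.6 in Python 3.11.15.

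All 9 members are named. Of each pathway list up to 4 called genes are named, the largest by mean log2 ratio in unamplified cDNA, and of likeness the 3 highest r per member measured on at least 20 arrays. List genes named beyond these (Mmp19, Plau, Fos, Fosl1, Etv5) and the markers named were chosen after their values were seen. The members and lists were chosen with earlier results of these data known. Alternatives were the array filter, the call rule, robust variance, a dye term, array scaling, assumed dye-swap pairs as a block, the array number as a replicate block, the fit by probe and leaving out each array.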

Additional observations from a re-analysis of the deposited data

Results flagged for a closer look

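With 4 arrays in a group, 1 value stood apart from the rest by Dixon's test: Timp1 on IVTIII array 1 at 0.43, against -0.04 to 0.03 on the other 3 arrays. It was 1 of 39 groups of members and arrays tested, and chance flags about 1 in 20 groups. IVTIII array 1 is also the array whose channel label names 3T3 where its description puts OV.

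Ratios that differed between an amplified target and unamplified cDNA by the test of the difference were as follows, as amplified minus unamplified log2 ratio with limma's adjusted p. In IVTIII these were Mmp2 at 1.73 (7.60e-06), Mmp3 at 0.62 (0.0188) and Timp1 at -0.73 (0.000915), and in GA Mmp13 at -1.36 (0.00154), Mmp2 at 0.69 (0.0165) and Timp1 at -0.68 (0.00332). In SMART it was Mmp13 at -1.44 (0.000746), and in SM37 Mmp13 at -1.88 (1.41e-05), Timp2 at -0.44 (0.00996) and Timp3 at -1.08 (0.000299). In GA from 10 pg they were Mmp13 at -5.91 (4.00e-06), Timp1 at -1.82 (7.01e-05) and Timp3 at -0.92 (0.00788), on arrays whose ratios did not correlate with those of unamplified cDNA, and in SMART from 10 pg Timp1 at -0.54 (0.00114). Each was seen in the same direction on 4 of 4 amplified arrays against the unamplified mean.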

How the results depend on the processing

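Mmp13 was called in the same direction under every alternative in IVTIII, GA, SMART, SM37 and unamplified cDNA, and in GA from 10 pg except with scaled arrays (-3.55, LOD below 0). The 5 calls of unamplified cDNA held with any 1 array left out. Over all member results and alternatives 669 values kept direction and side of the threshold, 21 lost and 15 gained it, and 14 changed sign.

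With an adjusted p under 0.05 in place of the LOD, genes called were 2221 in IVTIII (as reported 873), 1525 in GA (449), 523 in SMART (262), 2483 in SM37 (752), 756 in GA from 10 pg (241), 386 in SMART from 10 pg (104) and 4973 in unamplified cDNA (1640), with 2 members in each of the targets from 10 pg. A dye term gave 247 genes in GA, 149 in GA from 10 pg and 1 member in SM37. Assumed dye-swap pairs as a block gave 292 genes in GA and 114 in GA from 10 pg, where the correlation within pairs was 0.33 and 0.45. A value on at least 3 of 4 arrays gave 2 members in GA from 10 pg, Timp1 being the second. Scaled arrays gave 159 genes and 0 members in GA from 10 pg, 58 genes higher and 101 lower against 121 and 120 as reported, where the median of all genes stood at -0.10. For the difference from unamplified cDNA they gave 623 genes and 0 members in SMART (reported 1193 and 1) and 235 genes in SMART from 10 pg (387), and turned Timp2 in SMART to 0.019 and Timp3 in SMART from 10 pg to 0.24. The cause was not tested.

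With 1 array left out, genes called ranged from 557 to 758 in IVTIII, 212 to 347 in GA, 85 to 386 in SMART, 473 to 598 in SM37, 81 to 231 in GA from 10 pg, 69 to 97 in SMART from 10 pg and 790 to 1739 in unamplified cDNA. Members called ranged from 1 to 2 in GA and 1 to 4 in SMART and were 1 in SM37. Genes differing from unamplified cDNA ranged from 532 to 1246 in GA, 663 to 1494 in SMART and 947 to 3094 in GA from 10 pg, the last without its array 1, which had the fewest probes of that set. Leaving that array out admitted more genes than the 4002 tested as reported, so the count of 3094 does not show a larger share. Members differing ranged from 1 to 2 in SMART from 10 pg. Changes of sign were confined to uncalled values near 0: Mmp14 ranged from -0.0051 to 0.20 in SMART and -0.026 to 0.069 in SM37. The difference from unamplified cDNA in SMART ranged from -0.083 to 0.12 for Mmp14, -0.082 to 0.19 for Mmp3 and -0.12 to 0.31 for Timp3, that of Timp2 in GA from 10 pg from -0.51 to 0.071, and that of Timp3 in SMART from 10 pg from -0.28 to 0.013.

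The array number as a replicate block gave 1692 genes differing in IVTIII, 872 in GA, 862 in SMART, 1899 in SM37, 1215 in GA from 10 pg and 324 in SMART from 10 pg, within 1.5 times the reported counts, and the same counts of members. Deviations of same-numbered arrays correlated at -0.23 to 0.12, so the number did not pair arrays across targets.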
